A study of Mus musculus with 10 samples.

Results

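Interferon-stimulated genes were followed across naïve and lymphoma-stimulated mouse T cells. Of 39 listed genes, 37 were measured among 18193 genes on the arrays, each by its brightest probe set as averaged over the 10 arrays. *Isg15*, the ubiquitin-like modifier, has a probe set that the annotation ties to several symbols, and *Ifi44* was not matched to a probe set, so these 2 are not analysed here. The genes were split by role into 4 nucleic acid sensors, 4 genes of transcription and feedback, 17 antiviral effectors (16 measured), 6 GTPases of the GBP and IRG families and 8 others (7 measured). *Mx1* and *Mx2* are GTPases as well, but were counted with the antiviral effectors.

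The RNA came from 5 groups of sorted C57BL/6 T cells with 2 arrays each. CD4+ TEM (effector-memory) cells and CD4+ memory cells were taken on day 25 of co-culture, as were CD8+ TEM cells. Their naïve counterparts (TCRβ+ CD62L+ CD44-) came from the spleen of wild-type mice, and the cultures were started from such cells. The stimulators were γ-irradiated lymphoma lines grown from B cells of Cγ1-Cre Rosa26-LMP1flSTOP Rosa26-LMP2AflSTOP mice, in which germinal center B cells express the Epstein-Barr virus proteins LMP1 and LMP2A. The lines were obtained by passing these B cells through Rag2-/- or Rag2-/- γC-/- hosts. The T cells also received IL-2 and fresh stimulator cells every week. The cultured groups therefore differ from the naïve groups in activation, time in culture and contact with lymphoma cells at once, and these cannot be told apart. The sample records call the cultured cells EBV-specific effector or memory cells. The titles mark the CD4+ memory cells CM, and in such cultures the study distinguishes CD62L+ CD44+ central-memory from CD62L- CD44+ TEM cells, but the gate of the CM samples is not given in the sources used here, nor whether the replicates are separate animals. The p-values therefore measure only the spread between these samples, and 2 arrays per group limit the precision.

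Interferon-stimulated genes are switched on when a cell senses interferon. Type I interferons act through the receptor IFNAR and the kinases JAK1 and TYK2, and the complex ISGF3, which holds STAT2 and IRF9, then binds the interferon-stimulated response element (ISRE). IFN-γ acts through its own receptor, JAK1 and JAK2 on genes with a GAS element, while IRF1, an early target, can act on ISRE sites as well. Antiviral effectors such as the IFIT and OAS proteins respond strongly to type I interferon, whereas the murine GBP and IRG GTPases, which attack the vacuoles of intracellular pathogens, are classical targets of IFN-γ.

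Promoter windows from 250 bases before to 50 bases after the transcription start were available from RefSeq (GRCm38.p6) for 28 of the 39 genes. The ISRE was searched as GAAA, any 2 bases and again GAAA, and the GAS element as TTCNNNGAA, both on either strand and with overlapping matches kept. ISRE letters were present in 16 of the 28 (57.14%), against 3.99% of 27025 genes with a window. GAS letters were present in 8 of the 28 (28.57%), against 9.55% of all genes. The stretches below hold the ISRE letters of 3 genes that fell and 4 that rose in CD4+ TEM cells, written on the strand of the gene with the ISRE matches in capitals. They lie upstream of the start on chr19:34640765-34640833 (+, *Ifit1*), chr19:34583353-34583436 (+, *Ifit3*), chr12:26456543-26456592 (-, *Rsad2*), chr5:120777705-120777754 (-, *Oas3*), chr3:142620584-142620633 (+, *Gbp2*), chr3:142559979-142560034 (+, *Gbp3*) and chr11:58199502-58199551 (+, *Igtp*).
Ifit1: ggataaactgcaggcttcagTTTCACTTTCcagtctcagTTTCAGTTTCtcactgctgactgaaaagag
Ifit3: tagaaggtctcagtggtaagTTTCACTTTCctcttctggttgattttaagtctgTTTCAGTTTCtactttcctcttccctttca
Rsad2: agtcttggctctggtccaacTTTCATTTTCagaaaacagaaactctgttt
Oas3: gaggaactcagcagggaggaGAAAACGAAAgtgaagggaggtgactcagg
Gbp2: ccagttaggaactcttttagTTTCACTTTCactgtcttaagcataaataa
Gbp3: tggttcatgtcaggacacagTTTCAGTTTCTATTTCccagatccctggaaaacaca
Igtp: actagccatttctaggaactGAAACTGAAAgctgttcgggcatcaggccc
*Ifit1* and *Ifit3* each hold 2 ISRE matches, and the capitals of *Gbp3* cover 2 overlapping ones. Genes that fell in both TEM groups held the letters in 4 of 8 windows, and genes that rose in both held them in 4 of 5. A match describes these letters only and is not a bound site.

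The values are log2 RMA signals, on which 1 unit is a 2-fold difference. The arrays had medians of 4.65 to 4.75. To show where the dim end of the scale lies, 14 genes that lymphocytes should not express were read, and they lay between 2.54 and 5.85. Of the 37 genes, 26 were above 5.85 on all 10 arrays, 10 were above it on some, and *Mx2* was below it on every array. Where 1 group lies in this range, the change is a difference of signals and the true fold is not known. T cell markers were high in all groups, and *Cd4* and the CD8 genes were highest in the groups labelled so. *Cd4* read 6.51 and 6.89 in CD8+ TEM against 4.30 and 4.10 in naïve CD8+ cells, and *Cd8a* read 7.67 and 8.17 in CD4+ TEM against 5.16 and 4.99 in naïve CD4+ cells (2.85, adjusted p = 0.00126) and 3.93 and 5.38 in memory cells. B cell markers (8 of 9 measured) averaged 6.62 and 6.29 in CD4+ TEM, 7.44 and 6.96 in CD4+ memory and 3.87 and 3.79 in naïve CD4+ cells, and 6.25 and 6.65 in CD8+ TEM against 4.36 and 5.80 in naïve CD8+ cells. The 5 MHC class II markers averaged from 9.92 to 11.71 in the cultured groups and from 4.99 to 7.67 in the naïve groups. The 3′ minus 5′ signal of *Gapdh*, a sign of RNA quality, was 0.91 to 1.72 in the cultured and 2.42 to 2.75 in the naïve groups. Of the 8 B cell markers, 4 rose in CD4+ TEM cells (50%, against 16.4% of all genes called higher). In CD4+ memory cells 6 rose (75%, against 13.5%). *Ebf1* read 10.56 and 10.32 in CD4+ TEM and 10.82 and 10.19 in memory against 3.71 and 2.93 in naïve CD4+ cells. In CD8+ TEM cells 4 of the 8 rose (50%, against 20.9% of all genes called higher). These were *Ebf1* (6.16), *Vpreb3* (3.25), *Blnk* (2.79) and *Cd79b* (1.27). *Ms4a1* (-1.59), *Cd79a* (-0.68), *Pax5* (-0.19) and *Cd22* (-0.05) did not rise there and were not called. The average of the B cell markers and the *Gapdh* signal thus moved with every comparison of cultured with naïve cells. Their part in the results was not tested. In RNA from a cell population, fewer cells of a type and less RNA per cell cannot be told apart. Naïve CD8+ replicate 2 stood apart from replicate 1, with *Ms4a1* (CD20) at 7.02 against 3.15, so counts against naïve CD8+ cells are also given without it. Replicate 1 was in turn the higher of the pair for *Ifng* (7.5 against 3.40), *Irf4* (10.18 against 7.47) and *Cxcl10* (7.13 against 5.15). Both NK cell markers measured, *Ncr1* and *Klra8*, were below 5.85 on every array. Of the 6 myeloid markers none exceeded 5.85 on both arrays of any group. *Adgre1* (F4/80) nevertheless rose in CD4+ TEM (3.30) and memory cells (3.93), with 7.83 in memory replicate 1. In CD8+ TEM cells *Adgre1* read 5.02 and 6.34 and was not called (2.04). *Cd14* rose in CD8+ TEM cells within the range of silent genes (4.43 and 4.47, change 1.42). *Lyz2* read 8.70 in naïve CD8+ replicate 2. Of 3 genes listed for plasmacytoid dendritic cells, *Siglech* read 4.52 to 5.28 throughout, *Ccr9* was highest in naïve CD8+ cells (10.48 and 10.43), and *Tcf4*, which B cells also express, rose in CD4+ TEM (3.11), CD8+ TEM (4.05) and memory cells (2.82). The part of these genes in the results was not tested either.

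**Figure D1:**
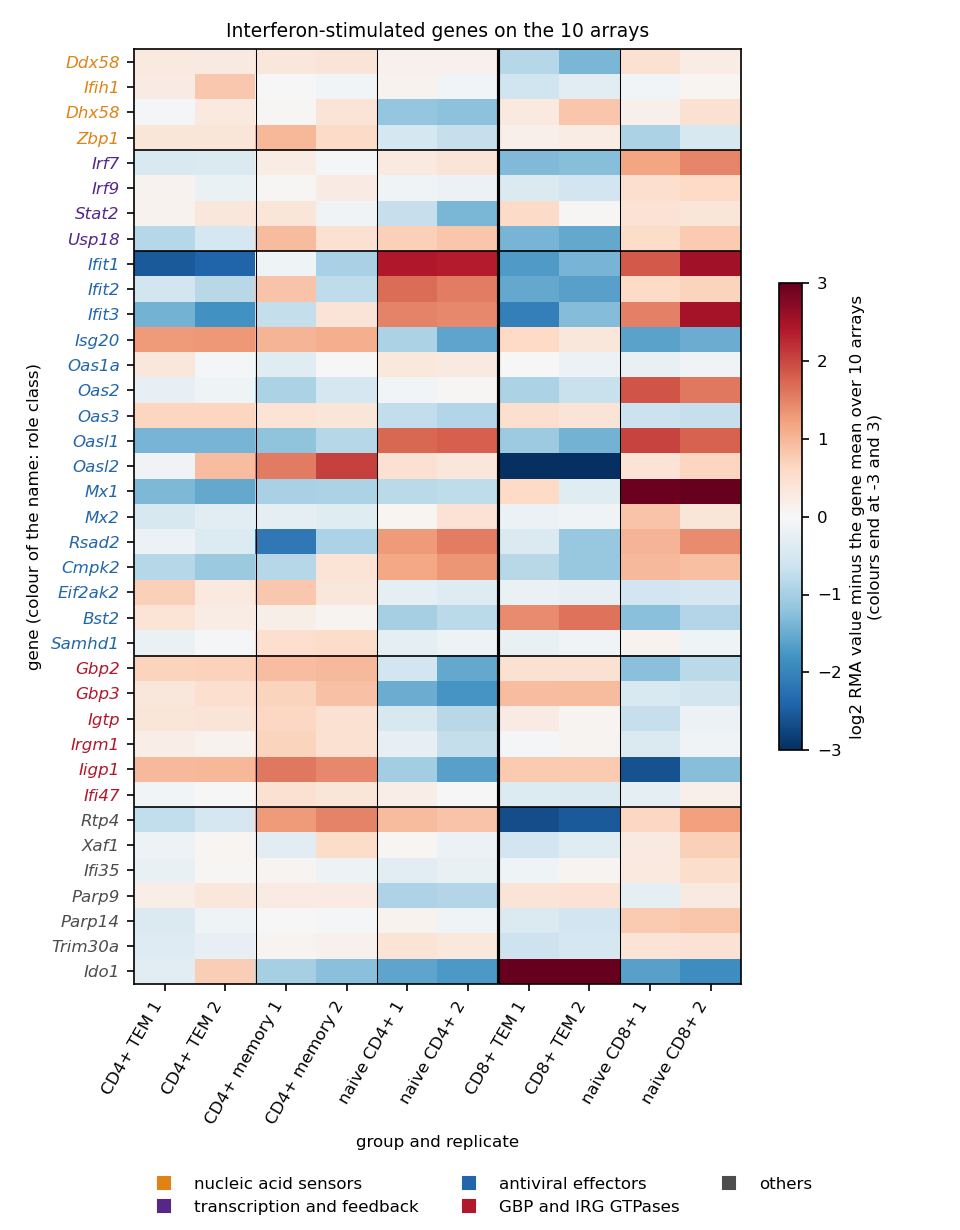
Log2 RMA value of each of the 37 genes (rows, ordered by role) on each of the 10 arrays (columns), minus the gene's mean over the 10 arrays; red is above and blue below that mean. *Ifit1* to *Ifit3* and *Oasl1* are red in the naïve groups, *Gbp2*, *Gbp3* and *Iigp1* in the cultured groups, and *Ido1* in CD8+ TEM cells.

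CD4+ TEM cells had less of the IFIT and *Oasl1* transcripts than naïve CD4+ cells and more of the GBP and IRG GTPases. In limma with adjustment over all genes, 14 of the 37 genes rose and 11 fell at an adjusted p under 0.05, or 67.6%, whereas 26.5% of all genes were called (16.4% higher and 10.1% lower). With median-centred arrays, 2501 genes of the array were higher and 2645 lower, in place of 2984 and 1841, and 13 and 11 of the 37. The median change of the 37 was 0.10, against 0.02 for all genes. Of the 6 GTPases 5 rose and none fell (median 1.38; *Irgm1* lost its call with median-centred arrays, adjusted p = 0.108), and of the 16 measured antiviral effectors 4 rose and 7 fell (median -0.41). In 30 of the 37 the CD4+ TEM and naïve arrays did not overlap, against 63.2% of all genes.

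*Ifit1*, whose product binds viral RNA that lacks a host cap, read 4.34 and 4.46 in CD4+ TEM cells against 9.25 and 9.20 in naïve CD4+ cells. The signal was lower by 4.83 log2 units on average (change -4.83, SE 0.31, adjusted p = 1.67e-05), and the TEM values lay among those of silent genes. *Oasl1*, which in mice restrains the translation of *Irf7*, read 3.34 and 3.35 in TEM against 6.47 and 6.54 in naïve cells (-3.16, SE 0.18, adjusted p = 9.3e-06). *Ifit3* read 5.84 and 5.42 against 8.73 and 8.68 (-3.07, SE 0.44, adjusted p = 0.0013). All TEM arrays of these 3 genes were below the naïve arrays. *Ifit2* (-2.30), *Cmpk2*, a mitochondrial nucleotide kinase (-2.22), *Rsad2*, which encodes the antiviral enzyme viperin (-1.70), and *Mx2* (-0.67) fell too. The change of *Mx2* lay within the range of silent genes on all arrays. The opposite direction was seen for *Isg20*, an RNA exonuclease, with 10.92 and 10.95 in TEM against 8.69 and 8.06 in naïve cells (2.56, SE 0.21, adjusted p = 6.27e-05). *Oas3*, an oligoadenylate synthetase that activates RNase L, rose by 1.45, *Bst2*, the virion-retaining protein tetherin, by 1.20 and *Eif2ak2*, the RNA-dependent kinase PKR, by 0.83. With the mean of its 3 probe sets *Eif2ak2* changed by 0.25 (adjusted p = 0.426). Within the OAS family, *Oasl1* thus fell and *Oas3* rose, while *Oas1a* (-0.15), *Oas2* (-0.16) and *Oasl2* (0.03) were not called.

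*Iigp1*, an IRG GTPase, read 10.50 and 10.54 in CD4+ TEM against 8.49 and 7.91 in naïve CD4+ cells (2.33, SE 0.39, adjusted p = 0.00282). *Gbp3*, a guanylate-binding protein, read 9.65 and 9.82 against 7.82 and 7.54 (2.05, SE 0.16, adjusted p = 4.14e-05). In both, the TEM and naïve arrays were separated by more than 1 log2 unit. *Gbp2* (1.73), *Igtp* (1.03) and *Irgm1* (0.63) rose as well, and *Ifi47*, an IRG member, was not called (-0.14). Among the sensors, *Dhx58* (LGP2, a regulator of RIG-I-like receptors) read 6.83 and 7.16 in TEM against 5.71 and 5.63 in naïve cells (1.32, SE 0.23, adjusted p = 0.0032). *Zbp1*, a sensor of Z-form nucleic acid, read 10.02 and 10 against 9.11 and 8.95 (0.98, SE 0.20, adjusted p = 0.00818). Its 2 probe sets differed in sign, and the dimmer one read lower in TEM cells (-1.0), so the direction of *Zbp1* is not settled. *Ddx58* (RIG-I, 0.15) and *Ifih1* (MDA5, 0.50) were not called.

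The genes of transcription and feedback were divided. *Usp18*, which removes ISG15 and dampens signalling at IFNAR, read 7.94 and 8.26 in CD4+ TEM against 9.51 and 9.63 in naïve CD4+ cells (-1.47, SE 0.21, adjusted p = 0.00113). *Stat2* read 7.41 and 7.64 against 6.62 and 5.93 (1.25, SE 0.29, adjusted p = 0.013). The arrays of the groups did not overlap for either gene, and the second probe set of *Stat2* gave 0.64 (adjusted p = 0.112 with the variation filter). *Irf7*, the factor that amplifies type I interferon production, fell by 0.78, and *Irf9* was not called (0.10). Of the others, *Rtp4*, a chaperone of receptors, read 8.13 and 8.36 against 9.81 and 9.72 (-1.52, SE 0.21, adjusted p = 0.00104). *Ido1*, which degrades tryptophan, read 4.99 and 6.06 against 3.75 and 3.60 (1.85, SE 0.31, adjusted p = 0.00278), so only 1 of the 2 TEM arrays was above the range of silent genes. *Parp9*, an ADP-ribosyltransferase, rose by 1.15 and *Trim30a*, a ubiquitin ligase of the TRIM family, fell by 0.67. Without naïve CD4+ replicate 2, 17 genes remained called, and *Zbp1*, *Irf7*, *Stat2*, *Mx2*, *Rsad2*, *Eif2ak2*, *Igtp* and *Irgm1* lost the call (adjusted p from 0.0512 for *Irf7* to 0.253 for *Irgm1*). Leaving out CD4+ TEM replicate 1 (*Eif2ak2*, *Mx2*, *Irgm1*), TEM replicate 2 (*Stat2*, *Rsad2*, *Mx2*, *Irgm1*), naïve CD4+ replicate 1 (*Rsad2*, *Eif2ak2*) or a CD8+ TEM array (*Mx2*, *Irgm1*) ended calls of these genes only.

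**Figure D2:**
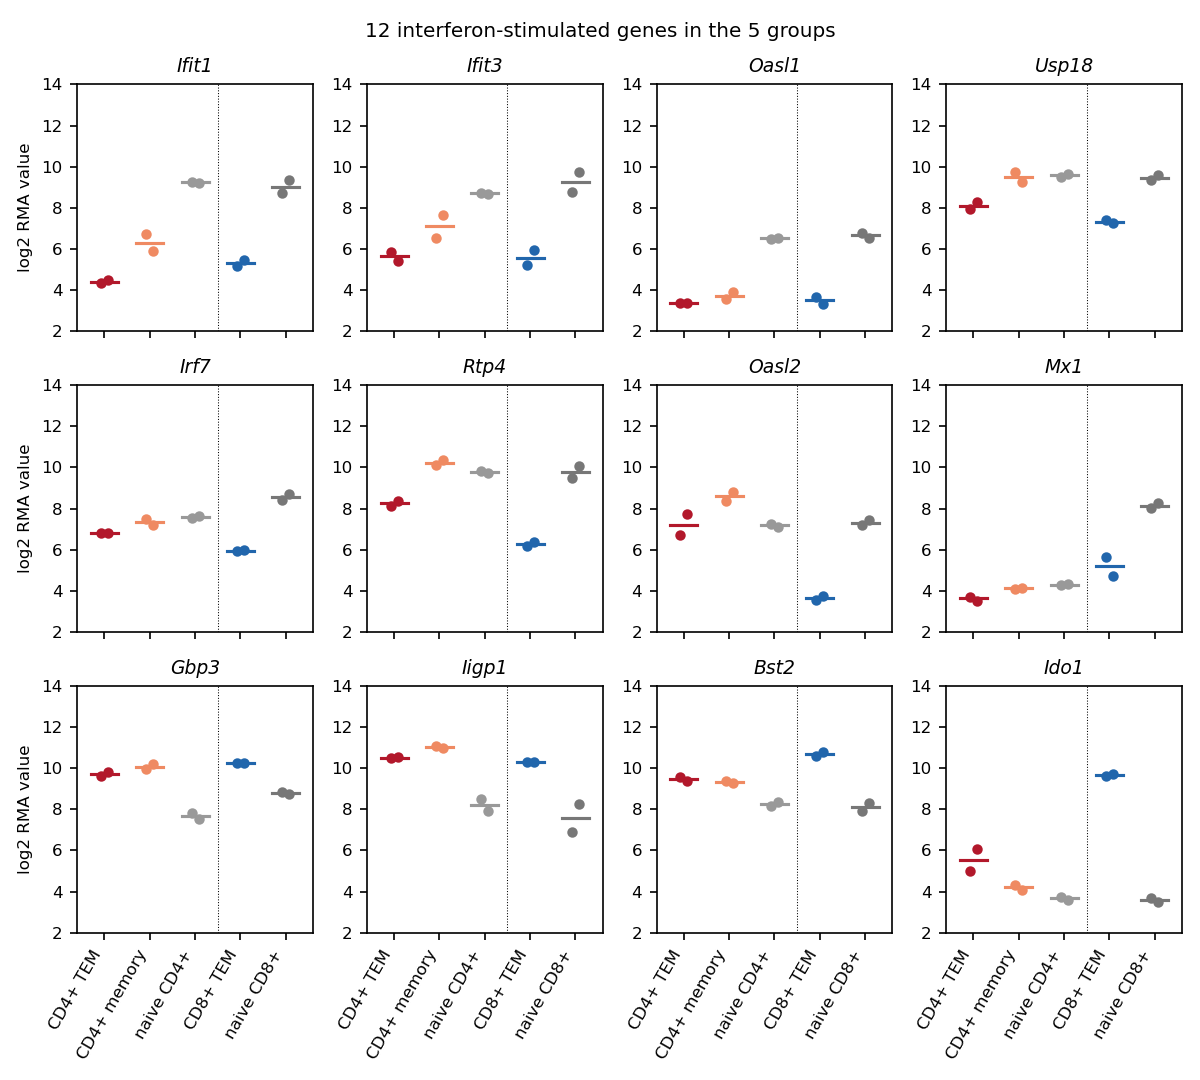
Log2 RMA values (vertical axis) of 12 interferon-stimulated genes in the 5 groups (horizontal axis); each point is 1 array and each bar the mean of 2. *Ifit1*, *Ifit3*, *Oasl1* and *Usp18* were below the naïve arrays in both TEM groups, *Oasl2* only in CD8+ TEM cells, and *Ido1* reached 9.62 and 9.71 there.

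CD8+ TEM cells had less of the IFIT, OASL and MX transcripts than naïve CD8+ cells, and far more *Ido1*. Here 8 of the 37 rose and 18 fell, or 70.3%, whereas 38.1% of all genes were called (20.9% higher and 17.2% lower). The median change was -0.45, against 0.06 for all genes. Of the 16 effectors 3 rose and 10 fell (median -1.97), and of the 6 GTPases 3 rose and none fell (median 1.02). The arrays did not overlap in 33 of the 37, and in 69.7% of all genes. Without naïve CD8+ replicate 2, 10 rose and 17 fell.

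*Ifit1* read 5.15 and 5.45 in CD8+ TEM cells against 8.70 and 9.37 in naïve CD8+ cells (-3.73, SE 0.31, adjusted p = 3.99e-05). *Ifit3* read 5.19 and 5.94 against 8.77 and 9.74 (-3.69, SE 0.44, adjusted p = 0.000287). Both genes had TEM arrays well below the naïve pair. *Oasl2*, an OAS-like protein that in mice keeps synthetase activity, read 3.53 and 3.75 against 7.20 and 7.44 (-3.68, SE 0.32, adjusted p = 5.33e-05). *Oasl1* read 3.66 and 3.32 against 6.78 and 6.52 (-3.16, SE 0.18, adjusted p = 6.68e-06). The TEM values of *Oasl1* and *Oasl2* lay among those of silent genes. *Mx1*, of which C57BL/6 mice make no functional protein, fell by 2.97, *Oas2* by 2.54, *Ifit2* by 2.22, *Rsad2* by 2.01, *Cmpk2* by 1.92 and *Mx2* by 0.76. *Bst2* (2.58), *Isg20* (2.02) and *Oas3* (1.09) rose.

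*Irf7* read 5.93 and 5.97 in CD8+ TEM against 8.43 and 8.72 in naïve CD8+ cells (-2.62, SE 0.16, adjusted p = 8.01e-06), and *Usp18* 7.40 and 7.25 against 9.33 and 9.58 (-2.13, SE 0.21, adjusted p = 9.43e-05). *Irf9* fell by 1.05, while *Stat2* was not called (-0.10). The sensor *Ddx58* read 8.01 and 7.49 against 9.31 and 9.08 (-1.44, SE 0.18, adjusted p = 0.000424). *Zbp1* read 9.81 and 9.86 against 8.69 and 9.17 (0.91, SE 0.20, adjusted p = 0.00759), and its dimmer probe set again ran the other way (-0.84). Both TEM arrays of *Ddx58* were below, and both of this *Zbp1* probe set above, their naïve arrays. *Dhx58* (0.25) and *Ifih1* (-0.45) were not called.

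*Iigp1* read 10.31 and 10.32 in CD8+ TEM against 6.91 and 8.26 in naïve CD8+ cells (2.73, SE 0.39, adjusted p = 0.000723). *Gbp2* read 11.44 and 11.43 against 9.73 and 10.18 (1.48, SE 0.29, adjusted p = 0.00409). The TEM pairs nearly coincided, and the spread lay in the naïve pairs. *Gbp3* rose by 1.45, and *Igtp* (0.60, adjusted p = 0.0513), *Irgm1* (0.30) and *Ifi47* (-0.37) were not called. *Ido1* read 9.62 and 9.71 against 3.70 and 3.47 (6.08, SE 0.31, adjusted p = 3.64e-06), with the naïve values among those of silent genes. *Rtp4* read 6.19 and 6.35 against 9.49 and 10.08 (-3.52, SE 0.21, adjusted p = 7.86e-06). *Parp14*, an ADP-ribosyltransferase (-1.33), *Trim30a* (-0.98) and *Xaf1*, a pro-apoptotic partner of XIAP (-0.97), fell. The second probe set of *Parp14* gave -0.20 (adjusted p = 0.554 with the variation filter). Leaving out CD8+ TEM replicate 1 (adjusted p = 0.143), CD8+ TEM replicate 2 (0.0764) or naïve CD8+ replicate 2 (0.157) ended the call of *Xaf1*. That of *Mx2* ended without either CD8+ TEM array or without naïve CD8+ replicate 1 (adjusted p up to 0.0921).

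Set side by side, 8 genes rose in both TEM groups (*Zbp1*, *Isg20*, *Oas3*, *Bst2*, *Gbp2*, *Gbp3*, *Iigp1*, *Ido1*) and 11 fell in both (*Irf7*, *Usp18*, *Ifit1*, *Ifit2*, *Ifit3*, *Oasl1*, *Mx2*, *Rsad2*, *Cmpk2*, *Rtp4*, *Trim30a*). A further 6 were called only in the CD4+ comparison, all higher (*Dhx58*, *Stat2*, *Eif2ak2*, *Igtp*, *Irgm1*, *Parp9*), and for none of them did the 2 changes differ by the test. Another 7 were called only in the CD8+ comparison, all lower (*Ddx58*, *Irf9*, *Oas2*, *Oasl2*, *Mx1*, *Xaf1*, *Parp14*), and for 6 of them, all but *Xaf1*, the changes did differ. A second probe set of *Xaf1*, within the range of silent genes on all arrays, gave -1.87 in CD4+ TEM and -1.92 in CD8+ TEM cells, so its place among the 7 rests on the probe set used. *Ifih1* (8.08 to 9.47 over the 10 arrays), *Oas1a* (7.69 to 8.41), *Samhd1*, a nucleotide hydrolase (11.33 to 12.16), *Ifi47* and *Ifi35* were called in neither. Across the 37 genes, the changes correlated with r = 0.81 (Pearson), close to 0.79 across the 18193 genes. Genes are not independent replicates, so this is a description.

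**Figure D3:**
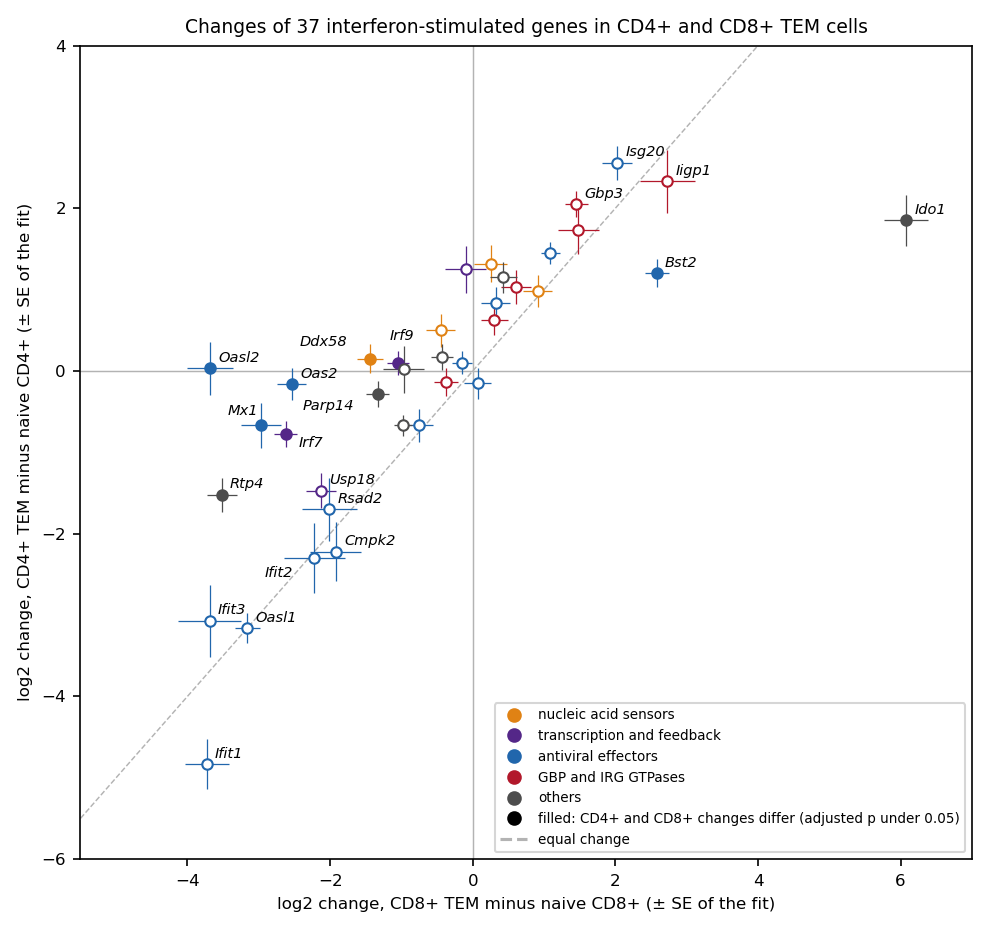
Log2 change of the 37 genes in CD8+ TEM against naïve CD8+ cells (horizontal axis) and in CD4+ TEM against naïve CD4+ cells (vertical axis), with standard errors of the fit; colours give the role and filled points the 10 genes whose changes differed. GTPases lie near the dashed line of equal change, and *Oasl2*, *Oas2* and *Mx1* lie left of it, with falls only in CD8+ cells.

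Whether a gene's change differed between the lineages was tested as the CD4+ change less the CD8+ one. This difference was called in 10 of the 37 genes, 8 higher and 2 lower, or 27.0%, whereas 12.5% of all genes were called (8.03% higher, 4.49% lower). None of the 6 GTPases was among them, with differences of -0.41 to 0.61. The largest positive difference was that of *Oasl2* (3.71, SE 0.45, adjusted p = 0.00263). *Oasl2* read 6.69 and 7.72 in CD4+ TEM and 7.24 and 7.12 in naïve CD4+ cells, which overlapped, while in CD8+ cells it fell. *Oas2* (2.38) read 5.01 and 5.12 in CD4+ TEM against 5.17 and 5.27 in naïve CD4+ cells, and 4.30 and 4.58 in CD8+ TEM against 7.14 and 6.82 in naïve CD8+ cells. *Mx1* (2.30) read 3.71 and 3.52 against 4.26 and 4.31 in the CD4+ groups, and 5.66 and 4.69 against 8.01 and 8.28 in the CD8+ groups. For *Oas2* and *Mx1* the CD4+ arrays were all at the dim end, and only naïve CD8+ cells were clearly above it. *Rtp4* (2.0), *Irf7* (1.84), *Ddx58* (1.59), *Irf9* (1.15) and *Parp14* (1.05) also fell further, or only, in CD8+ cells. *Ido1* (-4.24) and *Bst2* (-1.38) rose further in CD8+ cells. *Bst2* read 9.58 and 9.39 in CD4+ TEM against 8.18 and 8.38 in naïve CD4+ cells, and 10.59 and 10.81 in CD8+ TEM against 7.93 and 8.30 in naïve CD8+ cells. The calls of *Irf9* (without naïve CD4+ replicate 2, adjusted p = 0.0517, or CD8+ TEM replicate 2, 0.0644) and *Bst2* (without CD8+ TEM replicate 2, 0.0544) each rested on single arrays. That of *Parp14* was lost without CD4+ TEM replicate 2, naïve CD4+ replicate 2 or either CD8+ TEM array (adjusted p from 0.0575 to 0.0858). With the variation filter, which takes its second probe set, the call was lost too (0.0586), and the changes were 1.09 in CD4+ TEM and -0.20 in CD8+ TEM cells, so the fall of *Parp14* in CD8+ cells rests on the probe set.

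The TEM groups were also compared with each other. CD4+ TEM cells were higher than CD8+ TEM cells in 5 of the 37 genes and lower in 3, or 21.6%, whereas 5.72% of all genes were called (2.19% higher and 3.53% lower). With median-centred arrays, 513 genes of the array were higher and 531 lower, in place of 398 and 643. With quantile normalization 504 and 512 genes were called, and 8 and 3 of the 37. *Oasl2* (3.57), *Rtp4* (1.97), *Ddx58* (1.38), *Ifih1* (0.99) and *Irf7* (0.86) were higher in CD4+ TEM cells. *Ido1* (-4.14), *Mx1* (-1.56) and *Bst2* (-1.21) were lower. All TEM arrays of *Mx1* (3.71 and 3.52 in CD4+, 5.66 and 4.69 in CD8+ cells) lay within the range of silent genes. No GTPase was called, with differences of -0.52 to 0.38. Without CD4+ TEM replicate 2 only 4 genes were called, and without CD8+ TEM replicate 1 or 2 only 5. *Oasl2*, *Rtp4*, *Ddx58* and *Ido1* were called under every alternative, whereas *Ifih1*, *Irf7*, *Mx1* and *Bst2* lost the call under some.

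Naïve CD8+ cells held more of several of these transcripts than naïve CD4+ cells. In naïve CD8+ cells 10 of the 37 genes were higher and none lower, or 27.0%, whereas 20.5% of all genes were called (13.9% higher and 6.65% lower). With median-centred arrays, 2186 genes of the array were higher and 1803 lower, in place of 2524 and 1209, and 9 of the 37 were higher. *Mx1* differed most (8.01 and 8.28 against 4.26 and 4.31, change 3.86, SE 0.28, adjusted p = 0.000125). *Oas2* (1.76), *Dhx58* (1.51), *Stat2* (1.42), *Gbp3* (1.13), *Irf7* (0.98), *Parp9* (0.88), *Parp14* (0.81), *Irf9* (0.70) and *Ifi35*, which binds other interferon-induced proteins (0.67), were higher too. *Dhx58* read 7.03 and 7.32 in naïve CD8+ against 5.71 and 5.63 in naïve CD4+ cells, and 7.17 and 7.69 in CD8+ TEM against 6.83 and 7.16 in CD4+ TEM cells. By this probe set naïve CD4+ cells stood below the other groups. The other 2 probe sets of *Dhx58* read 2.83 to 3.5, among silent genes, and with the mean of all 3 the naïve difference was 0.37 (adjusted p = 0.0871). The second probe set of *Parp14* ran the other way (-0.85). Without naïve CD8+ replicate 2, 8 genes were higher and 1 lower. Without naïve CD4+ replicate 2, 5 were called.

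CD4+ memory cells had more of the GBP and IRG GTPases than naïve CD4+ cells and less of the IFIT, *Oasl1* and *Rsad2* transcripts. Against naïve CD4+ cells, 15 of the 37 genes rose and 7 fell, or 59.5%, whereas 23.2% of all genes were called (13.5% higher and 9.78% lower). The median change was 0.30, against 0.08 for all genes. This comparison shares its naïve arrays with that of CD4+ TEM cells. Again 5 of 6 GTPases rose and none fell (median 1.60), and of 16 effectors 6 rose and 7 fell.

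*Iigp1* read 11.11 and 10.98 in memory against 8.49 and 7.91 in naïve CD4+ cells (2.85, SE 0.39, adjusted p = 0.00123). *Gbp3* read 9.97 and 10.20 against 7.82 and 7.54 (2.40, SE 0.16, adjusted p = 2.59e-05), and *Gbp2* 11.90 and 11.95 against 10.41 and 9.45 (1.99, SE 0.29, adjusted p = 0.00178). All memory arrays of these 3 GTPases were above all naïve arrays. *Rsad2* read 4.92 and 6.11 against 8.35 and 8.59 (-2.96, SE 0.39, adjusted p = 0.00108), and *Ifit1* 6.72 and 5.87 against 9.25 and 9.20 (-2.94, SE 0.31, adjusted p = 0.000315). *Oasl1* read 3.54 and 3.89 against 6.47 and 6.54 (-2.79, SE 0.18, adjusted p = 2.55e-05). These 3 fell without overlap, although the memory pair of *Rsad2* was 1.19 apart. *Isg20* read 10.66 and 10.74 against 8.69 and 8.06 (2.33, SE 0.21, adjusted p = 0.000135). Both memory arrays of *Isg20* were above both naïve arrays. *Ifit3* (-1.62), *Ifit2* (-1.57), *Cmpk2* (-1.46) and *Oas2* (-0.70) fell, and the memory arrays of *Ifit2* (9.69 and 8.08) were 1.61 apart, the widest pair of the 37 genes in this group. The memory and naïve CD4+ arrays of *Oas2* all lay within the range of silent genes. Without memory replicate 1 the changes were -2.37 for *Ifit2*, -1.07 for *Ifit3* and -0.82 for *Cmpk2*, and without memory replicate 2 that of *Ifit2* was -0.76. *Oasl2* (1.41), *Oas3* (1.18), *Bst2* (1.03), *Eif2ak2* (0.91) and *Samhd1* (0.74) rose.

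Of the sensors, *Zbp1* read 10.64 and 10.23 in memory against 9.11 and 8.95 in naïve CD4+ cells (1.41, SE 0.20, adjusted p = 0.00162; -0.49 by its dimmer probe set). *Dhx58* read 6.90 and 7.25 against 5.71 and 5.63 (1.41, SE 0.23, adjusted p = 0.00292). *Stat2* read 7.68 and 7.19 against 6.62 and 5.93 (1.16, SE 0.29, adjusted p = 0.0207), and *Parp9* 10.16 and 10.16 against 8.99 and 9.04 (1.15, SE 0.19, adjusted p = 0.00311). In these 4 genes the memory arrays were above the naïve arrays. *Irgm1* (1.04) and *Igtp* (1.20) rose, and *Irf7* (-0.23), *Irf9* (0.30), *Usp18* (-0.07), *Rtp4* (0.48), *Trim30a* (-0.26) and *Ido1* (0.54) were not called. Without naïve CD4+ replicate 1 the calls of *Ifit2*, *Ifit3*, *Oas2*, *Oasl2*, *Cmpk2*, *Eif2ak2* and *Samhd1* were lost, and without naïve CD4+ replicate 2 those of *Stat2*, *Ifit2*, *Ifit3*, *Oas2*, *Oasl2*, *Cmpk2* and *Eif2ak2*. Without memory replicate 1 *Stat2*, *Ifit3*, *Oas2* and *Eif2ak2* lost the call, and without memory replicate 2 *Oasl2* did. *Oas2* and *Ifit2* also lost it when some arrays of the other groups were left out.

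Compared directly, CD4+ TEM cells were lower than CD4+ memory cells in 5 of the 37 genes and higher in none, or 13.5%, whereas 5.52% of all genes were called (3.89% higher and 1.64% lower). *Rtp4* read 8.13 and 8.36 in TEM against 10.13 and 10.35 in memory cells (-2.0, SE 0.21, adjusted p = 0.00161). *Ifit1* read 4.34 and 4.46 against 6.72 and 5.87 (-1.89, SE 0.31, adjusted p = 0.0119), and *Usp18* 7.94 and 8.26 against 9.75 and 9.25 (-1.41, SE 0.21, adjusted p = 0.00755). In these 3 genes the TEM arrays were below the memory arrays. *Oasl2* (-1.38, adjusted p = 0.0483) and *Samhd1* (-0.64, adjusted p = 0.0408) were close to the threshold. No GTPase was called (-0.52 to -0.16), and *Ido1*, at 4.99 and 6.06 against 4.34 and 4.09, missed the threshold (1.31, adjusted p = 0.0501). *Rtp4* was called under every alternative. With only the arrays of the 2 groups, just 1 gene was called. Without CD4+ TEM replicate 1 the calls of *Usp18* (adjusted p = 0.0552) and *Ifit1* (0.0735) were lost and 2 genes were called. Leaving out CD4+ TEM replicate 2, either naïve CD4+ array or either CD8+ TEM array left 3.

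Other genes of the pathway were read from lists. Of 10 measured interferon genes, *Ifnb1* (2.91 to 3.5) and 7 type I genes of the IFN-α family (2.47 to 5.95) were not called in either TEM comparison. *Ifnz* fell in CD4+ TEM (-1.70) and CD8+ TEM cells (-1.77, or -1.15 without naïve CD8+ replicate 2). *Ifng*, the gene of IFN-γ, read 10.22 and 10.06 in CD4+ TEM, 4.67 and 4.80 in CD4+ memory and 4.14 and 4.49 in naïve CD4+ cells. It read 11.12 and 11.12 in CD8+ TEM against 7.5 and 3.40 in naïve CD8+ cells. *Ifng* thus rose in CD4+ TEM (5.83, SE 1.04, adjusted p = 0.00407) and CD8+ TEM cells (5.67, SE 1.04, adjusted p = 0.00287; 7.72 without naïve CD8+ replicate 1 and 3.62 without replicate 2), and memory cells were close to naïve cells (0.42, adjusted p = 0.827). CD4+ TEM exceeded memory cells by 5.41 (SE 1.04, adjusted p = 0.0238), a call that was lost without either array of CD4+ TEM, CD4+ memory or CD8+ TEM cells (adjusted p up to 0.112).

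Of the 15 measured receptor and JAK-STAT genes, 3 rose and 1 fell in CD4+ TEM cells (26.7%, near the 26.5% of all genes), and 3 rose and 6 fell in CD8+ TEM cells (60%, against 38.1% of all genes). *Ifngr1*, a chain of the IFN-γ receptor, rose in CD4+ TEM (1.07), CD8+ TEM (0.75) and CD4+ memory cells (1.87). The kinase gene *Jak1* fell in all 3 (-1.02, -1.54 and -0.88). *Ifnar2* (0.88) and *Tyk2* (0.99) rose in CD4+ TEM cells. *Ifnar1* (-1.06), *Il10rb* (-0.80), *Jak2* (-0.91), *Ptpn6* (-0.90) and *Socs3* (-3.20), a feedback inhibitor, fell in CD8+ TEM cells, where *Stat3* (0.51) and *Socs1* (1.02) rose. All arrays of *Socs1* (4.23 to 5.54) lay within the range of silent genes. The call of *Stat3* was lost without either naïve CD8+ array (adjusted p = 0.0867 without replicate 1 and 0.0585 without replicate 2), and that of *Ptpn6* without replicate 2 (0.0529). In CD4+ memory cells 4 of the 15 rose and 2 fell (40%, against 23.2% of all genes). *Il10rb* was higher there, with a mean of 8.41 against 7.31 in naïve CD4+ cells, and *Ptpn6* lower, with 7.96 against 9.33. *Ifngr2* rose in memory cells only (0.85). *Ifnlr1* (3.45 to 4.02), *Ptpn11* (10.63 to 11.15) and *Pias1* (9.43 to 10.57) were not called in these 3 comparisons.

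Of 6 measured IRF genes outside the 39, 2 rose and 2 fell in each TEM group (66.7%, against 26.5% of all genes in CD4+ TEM and 38.1% in CD8+ TEM cells). *Irf8*, a factor of myeloid and B cells that activated T cells also express, read 10.04 and 10 in CD4+ TEM, 9.32 and 8.97 in memory and 5.11 and 4.35 in naïve CD4+ cells, and 9.58 and 9.67 in CD8+ TEM against 4.45 and 6.03 in naïve CD8+ cells. The rise of *Irf8* (5.29 and 4.38 in CD4+ and CD8+ TEM cells) left no overlap. *Irf4* rose by 3.35 and 3.70, and *Irf3* fell by 0.78 and 1.72. The naïve CD8+ arrays of *Irf4* were far apart (10.18 and 7.47), and its CD8+ change was 5.05 without naïve CD8+ replicate 1 and 2.34 without replicate 2. *Irf1* fell in CD8+ TEM cells (-1.08) and rose in memory cells (0.99). Of 13 measured nucleic acid sensing genes, 2 rose and 5 fell in CD4+ TEM cells (53.8%, against 26.5% of all genes), and 2 rose and 6 fell in CD8+ TEM cells (61.5%, against 38.1%). *Ikbke*, a kinase that activates IRF proteins, fell by 1.73 and 3.88, *Tlr7* by 1.67 and 2.74, and *Adar*, an RNA-editing enzyme, by 1.01 and 2.26. All CD4+ arrays of *Tlr7* lay within the range of silent genes. Of its CD8+ arrays only naïve CD8+ replicate 2 (6.3) was above that range. *Ticam1* (1.36 and 1.23) and *Unc93b1* (1.33 and 1.77) rose.

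A further 39 interferon-responsive genes were read, of which 16 rose and 11 fell in CD4+ TEM cells (41.0% and 28.2%, against 16.4% and 10.1% of all genes). In CD8+ TEM cells 10 rose and 13 fell (25.6% and 33.3%, against 20.9% and 17.2% of all genes), and without naïve CD8+ replicate 2 these were 13 and 13. The CXCR3 ligands were among the largest rises. *Cxcl9* read 5.44 and 5.80 in CD4+ TEM against 2.99 and 3.33 in naïve CD4+ cells (2.46). It read 8.92 and 9.29 in CD8+ TEM against 2.81 and 3.36 in naïve CD8+ cells (6.02). All CD4+ arrays of *Cxcl9*, those of memory cells included, lay within the range of silent genes. *Cxcl10* rose by 4.34 and 5.29 and *Cxcl11* by 2.19 and 5.30. The naïve CD8+ arrays of *Cxcl10* were apart (7.13 in replicate 1 and 5.15 in replicate 2). Its CD8+ change was 6.28 without naïve CD8+ replicate 1 and 4.30 without replicate 2. Falls were seen for *Ddx60*, a helicase (-2.80 and -3.62), and *Slfn8*, a Schlafen family member (-1.65 and -3.93). In memory cells 15 of the 39 rose and 7 fell (38.5% and 17.9%, against 13.5% and 9.78% of all genes), led by *Ube2l6*, the ISG15 conjugating enzyme (2.58), *Cxcl9* (2.30), *Ms4a4c* (2.14) and *Irgm2*, an IRG member (1.97).

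**Figure D4:**
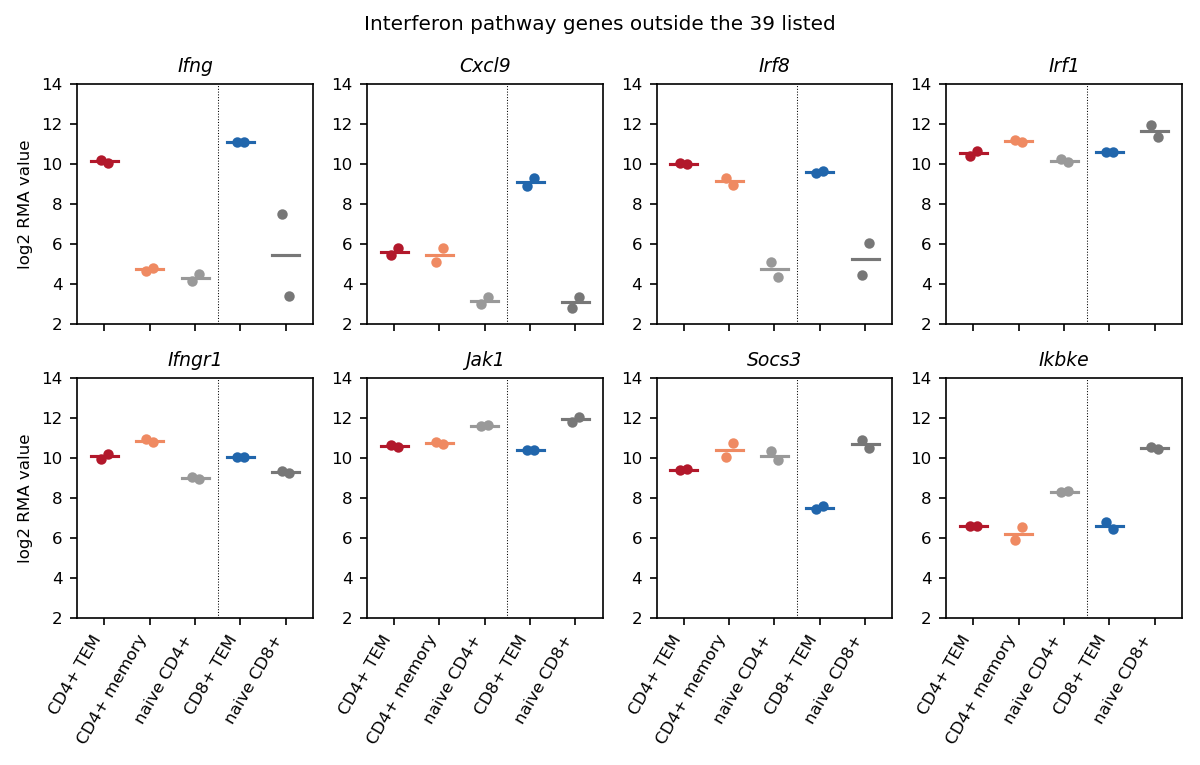
Log2 RMA values (vertical axis) of 8 pathway genes outside the 39 in the 5 groups (horizontal axis); each point is 1 array and each bar the mean of 2. *Ifng* is above 10 in both TEM groups and below 5 in CD4+ memory and naïve CD4+ cells, and its naïve CD8+ arrays are 4.10 apart.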

How the data were processed

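RNA of 10 samples (5 groups of 2) was hybridised to Affymetrix mouse genome arrays. The authors made the deposited values with RMA (background correction, quantile normalization and probe summary) using BRB-ArrayTools (version not given in the sources used here), and the table holds 1 log2 value per probe set and array, from 1.68 to 14.86. It was not centred, and arrays carry no depth, so their number limits the precision. The platform annotation gave 34945 of 45101 probe sets 1 symbol (932 several, 9160 none, 64 controls), of which 34741 were updated by Entrez ID (GRCm38.p6 gene table) and 204 kept as given. For each of 18193 genes the probe set with the highest mean was used. No column was left unused.

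A model of group means over the 10 arrays was fitted in limma 3.58.1 (R 4.3.3) with eBayes and Benjamini-Hochberg adjustment over 18193 genes, with 5 residual degrees of freedom, and called at an adjusted p under 0.05. Every adjusted p in the text is from this limma model or a refit of it. The fit was checked on simulated data. Alternatives were averaging every probe set of a gene, probe sets without a cross-hybridisation suffix, a filter on dim genes (log2 of 6 on at least 2 arrays), the authors' variation filter (p over 0.01 left out), median-centred arrays, quantile normalization, trended robust eBayes, arrays of the compared groups only, a replicate block, and leaving out each of 10 arrays. The sources used here do not say whether same-numbered samples belong together, and the main model did not pair them. Every listed gene is accounted for. Those called are named with their change, and array values are given for up to 12 called genes a comparison that stand out by size, with at least 2 per role where that many were called. Of each pathway list, up to 4 called genes with the largest change in a comparison were eligible, besides all receptor and JAK-STAT genes. Genes and lists were chosen with earlier results of these data known. Record fields that name germinal center B cells or a FOXO1 status, and a design text on a CRISPR-edited lymphoma line, go against the sample titles and were set aside. Python 3.11.15, pandas 2.3.3, numpy 2.4.6 and matplotlib 3.10.9 were used.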

Additional observations from a re-analysis of the deposited data

Results flagged for a closer look

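In 10 genes the log2 change of CD4+ TEM against naïve CD4+ cells differed from that of CD8+ TEM against naïve CD8+ cells by a test of the difference in limma. The CD4+ change exceeded the CD8+ one by 3.71 for *Oasl2* (adjusted p = 0.00263), 2.38 for *Oas2* (0.00228), 2.30 for *Mx1* (0.0102), 2.0 for *Rtp4* (0.00533), 1.84 for *Irf7* (0.00245), 1.59 for *Ddx58* (0.00799), 1.15 for *Irf9* (0.0137) and 1.05 for *Parp14* (0.0196). The difference was -4.24 for *Ido1* (adjusted p = 0.00137) and -1.38 for *Bst2* (0.0112). For *Oas2* and *Mx1* the values differed already between the naïve groups, which were higher in naïve CD8+ cells by 1.76 and 3.86. *Irf7*, *Irf9* and, by the probe set used, *Parp14* were also called higher in naïve CD8+ than in naïve CD4+ cells. *Oas2*, *Irf9* and *Parp14* were not called between the TEM groups. Without naïve CD8+ replicate 2, the array with raised B cell genes, 10 genes were called.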

How the results depend on the processing

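Of 106 called changes of the 37 genes, refitted 1963 times in all, 1815 refits kept direction and call, 142 lost the call and 6 turned the direction. The turned values were those of *Zbp1* in CD4+ TEM (-0.01 with the mean of all probe sets, -1.0 with unmarked probe sets), CD8+ TEM (-0.84) and CD4+ memory cells (-0.49, both with unmarked probe sets), and of *Parp14* between naïve groups (-0.02 with the mean of all probe sets, -0.85 with the variation filter), all from a second probe set. With unmarked probe sets, which measure 29 of the 37, the differing changes numbered 6 in place of 10 and the naïve CD8+ against naïve CD4+ calls 5 in place of 10, and with the variation filter the naïve groups had 6 of 26. With arrays of the compared groups only, CD4+ TEM against memory cells had 1 called gene of the 37 and 223 of all genes, in place of 5 and 1005. Leaving out 1 array gave, for the 37 genes and for all genes, 17 to 25 and 3185 to 5346 calls in CD4+ TEM (3185 without naïve CD4+ replicate 2, in place of 4825), 24 to 27 and 5230 to 7389 in CD8+ TEM, 7 to 11 and 982 to 2774 for the difference, 15 to 22 and 2575 to 4497 in memory, 2 to 5 and 490 to 1140 for TEM against memory, 4 to 11 and 219 to 1436 for CD4+ TEM against CD8+ TEM and 5 to 11 and 2109 to 4218 for the naïve groups. The all-gene lows came from leaving out naïve CD4+ replicate 2 (memory, naïve groups), CD8+ TEM replicate 2 (difference, TEM groups) and CD4+ TEM replicate 1 (TEM against memory). Same-numbered samples did not deviate together (correlations of -0.0358 to 0.0294 over 10 pairs of groups). With the replicate block 23, 26, 12, 22, 4, 8 and 10 of the 37 were called in the same order of comparisons, and *Irgm1* and *Mx2* in CD4+ TEM and *Samhd1* against memory lost the call. Median-centring moved the median change of all genes to -0.13 in CD4+ TEM cells and -0.14 between the naïve groups, in place of 0.02 and -0.03. Signals near 2.54 to 5.85 lie among those of silent genes, so changes of *Mx2* are limited by background. The same holds, on some arrays at least, for the low side of *Ifit1*, *Ifit3*, *Oasl1*, *Oasl2*, *Oas2*, *Mx1*, *Rsad2*, *Cmpk2*, *Dhx58* and *Ido1*.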
